A study of Homo sapiens with 6 samples.

Results

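The interferon-inducible GTPases described here are 10 genes of the count table that were picked by symbol, out of 22989 genes in all. Of these, 8 belong to the immunity-related GTPases (IRG: Irgm1, Irgm2, Igtp, Iigp1, Tgtp1, Tgtp2, Gm12250 and Ifi47) and 2 to the guanylate-binding proteins (GBP: Gbp2 and Gbp3). All 10 were found and all 10 passed the filter on low counts. RNA was sequenced in 3 libraries of LINC00115 knockdown (KD) and 3 libraries labelled WT, all described as paclitaxel (PTX)-resistant MDA-MB-231 breast cancer stem cells (BCSC). This line came from a human breast tumour without hormone receptors or HER2, and stem-like cells were sorted from it by strong aldehyde dehydrogenase activity. Knockdown was by short hairpin RNA against LINC00115, a long non-coding RNA. The paper describes a control hairpin where the labels say WT, and it names 1 hairpin for this experiment while the labels number the KD libraries sh115-1 to sh115-3. The comparison asks which genes change in BCSC when LINC00115 is knocked down. Nothing says that the 3 libraries of a group came from separate cultures, so the p-values measure the spread between these libraries only.

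The 2 families are part of the cell-autonomous defence that interferons switch on. Interferon binds its receptor, JAK kinases pass the signal to transcription factors, and these, with interferon regulatory factors, act on the promoters of the GTPases. IRG proteins fall into a GMS class, named for a glycine, methionine and serine in the nucleotide-binding loop, whose members sit on the cell's own membranes and keep the others inactive there, and a GKS class, with lysine in place of methionine, whose members gather on the vacuoles of parasites and bacteria and break them. GBP proteins are larger GTPases that coat the same vacuoles and cytosolic bacteria and bring inflammasomes into play. The mouse has a large set of IRG genes. Human cells have very few, and the human gene IRGM is not switched on by interferon.

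These symbols go against the labelled human line. Of the 10 members, 2 (Gbp2 and Gbp3) equal a human gene symbol apart from case, and 8 equal neither a current nor an older one. The table holds 0 rows named IRGM, IRGC or GBP1 in any case, and 0 rows named LINC00115, so the knockdown was not checked in these counts and every direction rests on the labels. The species of the RNA was not tested. Tgtp1 and Tgtp2 are near-identical copies in the mouse, and counts of that pair may be split between them in a way that is not known here.

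Every member was higher in the KD libraries, by 3.78-fold for Irgm1 at the least and by 183-fold for Gm12250 at the most. A gene was called higher or lower at an adjusted p under 0.05 and a fold change over 2 in edgeR's quasi-likelihood test over 13497 genes. By this rule 10 of 10 members were called higher and 0 lower, where 10.2% of all genes tested were called higher and 9.98% lower. Their median log2 fold change was 3.16, and that of all genes tested was −0.0061. In 10 of 10 members every KD library lay above every WT library, which held for 37.8% of all genes tested. Added up, the members took between 0.0208% and 0.0231% of the counts of a WT library and between 0.144% and 0.154% of a KD library. Their summed level was 216 ± 12.2 in WT and 1494 ± 55.6 in KD (SD, n = 3 libraries each), a 6.91-fold difference in normalized CPM, which are counts relative to the TMM-scaled total of their library. In bulk RNA, more cells that express a gene and more RNA per cell cannot be told apart.

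**Figure D1:**
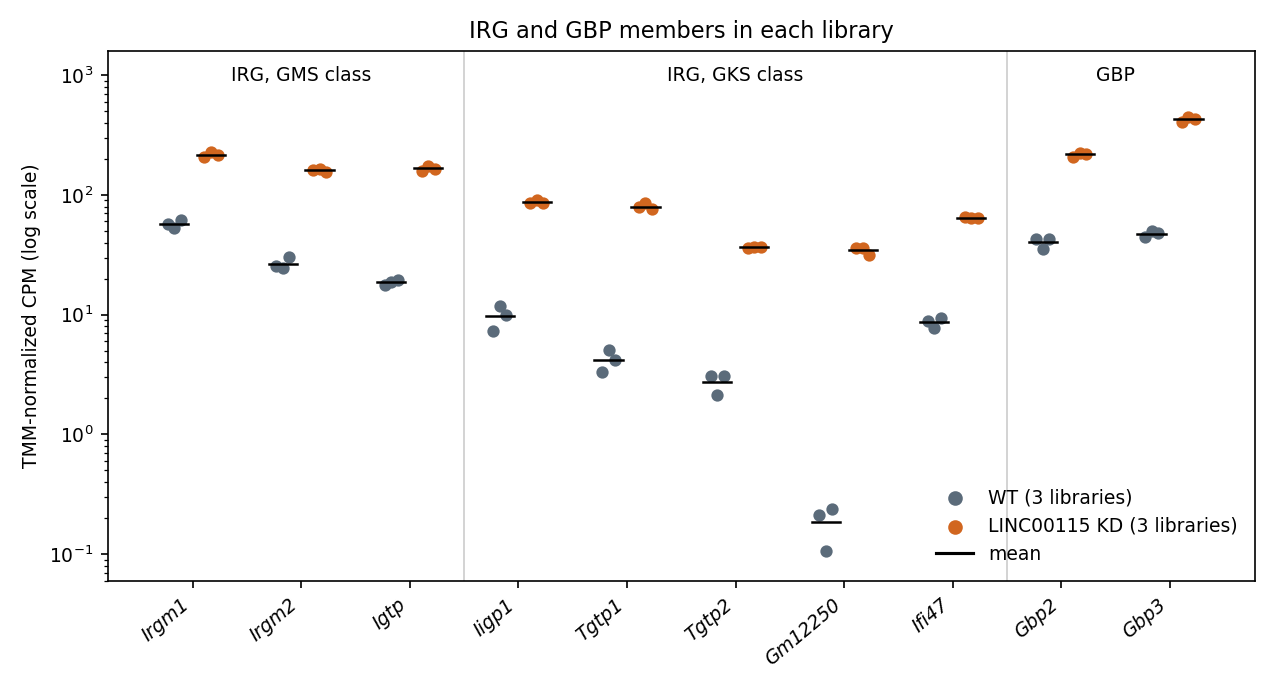
Normalized CPM (log scale) of the 10 members in each of 3 WT and 3 LINC00115 KD libraries, with points for libraries and bars for group means. The KD libraries lie above the WT libraries for every member, and the widest gap is that of Gm12250, at 0.106 to 0.238 in WT and 31.6 to 36.1 in KD.

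The library totals lay between 36979221 and 38799331 counts, and the TMM factors between 0.9901 and 1.014, so depth was close to even across the libraries. The members had 1201 to 16580 counts in a KD library and 4 to 2350 in a WT library.

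Marker genes of other cells were read in the same libraries, with the call of the members' test and the sum over each list in normalized CPM. Over all genes tested, 10.2% were called higher and 9.98% lower. All 10 lung epithelial markers were called higher, with a sum of 0.77 to 1.03 in WT and 67.3 to 79.3 in KD. Of 10 kidney tubule markers 7 were tested, 5 were called higher and 0 lower, and the sum was 9.37 to 9.80 in WT and 24.4 to 28.5 in KD. Cubn made up most of the WT sum and averaged 8.28 in WT and 6.07 in KD, lower at the adjusted p only. Kap averaged 0 in WT and 10.4 in KD. Of 17 leukocyte markers found 8 were tested, 5 were called higher and 0 lower, and the sum was 88.2 to 99.9 in WT and 196 to 211 in KD. Those called were Lyz2 (8.25-fold), Cd74 (3.52-fold), Cd14 (3.24-fold), S100a8 (2.89-fold) and S100a9, which had 0, 0 and 2 counts in WT and 50, 68 and 48 in KD. The pan-leukocyte gene Ptprc averaged 0.194 in WT and 0.255 in KD and was not tested, and Cd3e was at 0 in all libraries. Of 8 endothelial markers 4 were tested, with Cdh5 called higher and Tie1 lower, and the sum went from 1.19 to 1.83 in WT to 57.6 to 60.3 in KD, where Cdh5 alone averaged 57.8 and Pecam1 0.324. Of 8 fibroblast markers 4 were tested, 0 were called higher and 2 lower (Pdgfra and Dcn), with a sum of 175 to 193 in WT and 76.6 to 78.6 in KD. Of 10 epithelial markers 4 were tested, and Cdh1 was called higher. Krt14 was called lower, but its groups overlapped, with 7, 30 and 192 counts in WT and 31, 28 and 19 in KD. The list's sum of 599 to 609 in WT and 960 to 1009 in KD came mostly from Krt8 and Krt18.

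Of 10 mesenchymal genes of MDA-MB-231, 8 were tested and 0 were called in either direction. In 4 of them (Vim, Axl, Cav1 and Twist1) every KD library lay above every WT library, and in 2 (Fn1 at 0.734-fold and Lgals1 at 0.724-fold) every KD library lay below. Their sum was 12363 to 12489 in WT and 10876 to 11028 in KD, while Snai2 was at 0 in WT and Cdh2 averaged 0.017 in KD. Of 5 luminal genes, a class held to be low in triple-negative cells, 4 were tested and Esr1 was called higher (3.66-fold). Erbb2 was 1.62-fold and Gata3 0.555-fold in KD over WT, both past the adjusted p only, and the list's sum of 109 to 121 in WT and 82.6 to 85.3 in KD came mostly from Gata3. The part of other cells in the members' levels was not tested.

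Among the regulatory GMS members, Irgm1 is needed for control of the other IRG proteins and for the survival of immune cells under interferon. It stood at 57.2, 52.7 and 62.2 normalized CPM in WT replicates 1 to 3 and at 209, 228 and 214 in KD replicates 1 to 3. The lowest KD library was 3.36 times the highest WT library, the smallest gap of the 10 members. The log2 fold change was 1.92 with a standard error of 0.049 (edgeR, adjusted p = 1.52e-27), the lowest of the members.

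Irgm2, a GMS protein of the Golgi, stood at 25.6, 24.3 and 30.3 normalized CPM in the WT libraries and at 161, 165 and 155 in the KD libraries. The groups were separate by 5.12 times between their nearest libraries. Its log2 fold change was 2.59 with a standard error of 0.057 (edgeR, adjusted p = 3.24e-29).

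Igtp, also called Irgm3, sits on the endoplasmic reticulum and on lipid droplets. It stood at 17.7, 18.6 and 19.5 in the WT libraries and at 159, 173 and 166 normalized CPM in the KD libraries. This member had the tightest WT libraries, with a coefficient of variation of 4.77%. Its log2 fold change was 3.16 with a standard error of 0.053 (edgeR, adjusted p = 8.19e-33), so within the GMS class the fold changes ran from 3.78-fold for Irgm1 over 6.0-fold for Irgm2 to 8.94-fold for Igtp.

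Among the effector GKS members, Iigp1, the protein also called Irga6, is one of those that load onto parasite vacuoles. Its WT libraries spread widely, at 7.25, 11.9 and 9.98 normalized CPM, a coefficient of variation of 24.2% where counting alone would give 5.22%. The KD libraries were close together, at 86.3, 90.0 and 85.3. With this spread in WT, the log2 fold change of 3.17 with a standard error of 0.088 (edgeR, adjusted p = 2.14e-26) ranged from 2.99 to 3.34 when each library was left out in turn.

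Tgtp1 and Tgtp2 encode the effector also called Irgb6. Tgtp1 stood at 3.29, 5.11 and 4.18 normalized CPM in the WT libraries and at 79.4, 84.9 and 75.6 in the KD libraries, a log2 fold change of 4.25 with a standard error of 0.090 (edgeR, adjusted p = 8.71e-30). Tgtp2 stood at 3.08, 2.12 and 3.10 in WT and at 36.0, 37.1 and 36.8 in KD, a log2 fold change of 3.72 with a standard error of 0.11 (edgeR, adjusted p = 1.05e-25). In WT the copies went opposite ways, since WT replicate 2 was the highest for Tgtp1 and the lowest for Tgtp2. The sum of both was steadier, at 6.37, 7.23 and 7.28 normalized CPM in WT, a coefficient of variation of 7.34% against 21.7% for Tgtp1 and 20.2% for Tgtp2 alone. Counted as 1 gene, an alternative chosen after the data were seen, the pair had a log2 fold change of 4.07. Given the likeness of the copies, the values of either one are uncertain. WT replicate 2 was also the highest for Iigp1 and Gbp3 and the lowest for Irgm1, Irgm2, Gm12250, Ifi47 and Gbp2. Whether reads were split between the copies was not tested. How reads common to both were counted is not known here, so the sum is uncertain too.

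Gm12250, the effector also called Irgb10, attacks vacuole and bacterial membranes and helps to expose bacterial ligands to inflammasomes. It was near the limit of detection in WT, with 8, 4 and 9 counts (0.212, 0.106 and 0.238 normalized CPM), and reached 1392, 1325 and 1201 counts (36.0, 36.1 and 31.6 normalized CPM) in KD. The nearest libraries of the groups were 133-fold apart. The log2 fold change of 7.52 with a standard error of 0.17 (edgeR, adjusted p = 3.73e-29) placed it at rank 37 of 13497 genes by fold change. The WT spread of 37.8% equalled that of counting alone (37.8%), so the size of this fold rests on few WT counts. It lay between 7.24 and 7.74 when each library was left out in turn.

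Ifi47, also called Irgd, is a GKS protein recruited to vacuoles beside the others. It stood at 8.89, 7.79 and 9.45 normalized CPM in WT and at 65.7, 63.8 and 64.2 in KD. The KD libraries differed by a coefficient of variation of only 1.58%. Its log2 fold change was 2.89 with a standard error of 0.074 (edgeR, adjusted p = 1.69e-27), the smallest of the GKS class.

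Gbp2, a lipid-anchored GBP found on pathogen vacuoles, stood at 42.9, 35.3 and 42.8 normalized CPM in the WT libraries and at 209, 226 and 219 in the KD libraries. WT replicate 2 was the lowest library, and the groups stayed 4.87 times apart. The log2 fold change was 2.43 with a standard error of 0.053 (edgeR, adjusted p = 2.33e-29). Gbp3, a family member that acts with other GBPs, stood at 44.4, 49.7 and 48.4 in WT and at 408, 452 and 429 in KD. Its log2 fold change of 3.18 with a standard error of 0.045 (edgeR, adjusted p = 6.27e-35) had the lowest adjusted p of the 10 members.

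**Figure D2:**
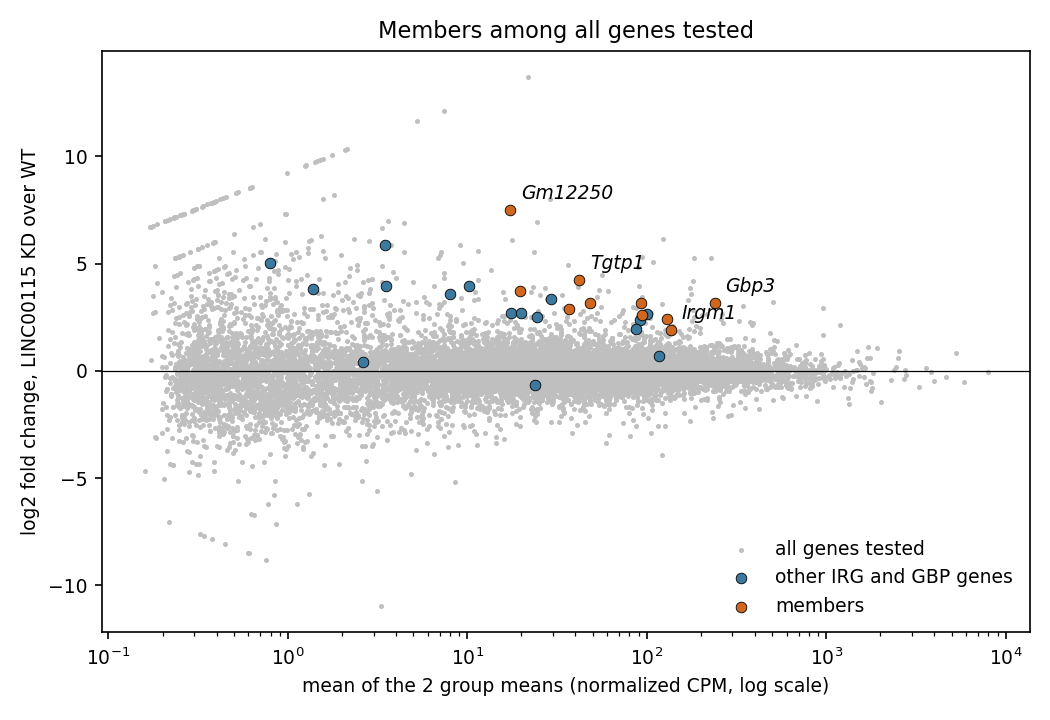
Log2 fold change of LINC00115 KD over WT against the mean of the group means (normalized CPM, log scale) for all 13497 genes tested (grey), the 10 members (orange) and the other IRG and GBP genes (blue). All members lie above 0, from 1.92 for Irgm1 to 7.52 for Gm12250, and 3 other family genes lie under the fold change of 2.

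Ordered by fold change, Gm12250 came before Tgtp1, Tgtp2, Gbp3, Iigp1, Igtp, Ifi47, Irgm2, Gbp2 and Irgm1. Neighbours in this order were not all distinct. Gbp3 and Iigp1 differed by 0.011 and Iigp1 and Igtp by 0.004 on the log2 scale, 0.115 and 0.0395 times their combined standard errors. Irgm2 and Gbp2 differed by 0.15 (2.0 combined standard errors) and Igtp and Ifi47 by 0.27 (2.99). The steps from Gm12250 to Tgtp1 (3.26 on the log2 scale) and from Gbp2 to Irgm1 (0.51) were 17.1 and 7.12 combined standard errors wide. A combined standard error treats the genes as independent, though all were read in the same libraries. These multiples are therefore a description and not a test between genes. Among all genes tested the members ranked between 37 and 615 by fold change, which is within the upper 4.56%.

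The members varied less between KD libraries than between WT libraries. The coefficient of variation ran from 1.56% to 7.38% in KD, with a median of 4.06%, and from 4.77% to 37.8% in WT, with a median of 11.3%. Part of this goes with the number of counts, since counting alone gives a median of 1.51% in KD and 4.50% in WT. Within the KD group, replicate 2 was the highest library for 9 of 10 members, all but Ifi47, where it was the highest for 35.8% of all genes tested. In the WT group replicate 3 was the highest for 6 members and the lowest for 0, against 31.9% and 31.6% of all genes tested. In no member did a difference within a group reach the gap between the groups.

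The summed effector class had the larger fold difference of the 2 IRG classes. The folds of single members overlapped between the classes, with Igtp (GMS) at 8.94-fold and Ifi47 (GKS) at 7.41-fold. Counts are not corrected for gene length, so the ratio of counts of the classes has no meaning as a level, but it does not depend on the scaling of the libraries. Longer genes weigh more within each sum, so the size of its change depends on gene length too. Summed GKS counts over summed GMS counts gave 0.226, 0.283 and 0.241 in the WT libraries and 0.573, 0.550 and 0.549 in the KD libraries. All KD libraries lay above all WT libraries, and the ratio was 2.24-fold higher in KD. On the log2 scale this was −2.01 ± 0.17 in WT against −0.84 ± 0.036 in KD (SD, n = 3 each, two-sided exact permutation p = 0.1, the smallest that 3 libraries against 3 allow). Without Tgtp1 and Tgtp2 the ratio was 1.89-fold higher, and without Gm12250 2.00-fold higher, with the same exact permutation p of 0.1. The sums themselves, which were not tested, went from 103 ± 8.41 to 544 ± 20.4 normalized CPM (GMS, 5.29-fold) and from 25.6 ± 2.47 to 303 ± 9.25 (GKS, 11.8-fold).

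Other count ratios, chosen after the data were seen, compared members within a class. Igtp over Irgm1, both of the GMS class, went from 0.310, 0.353 and 0.313 in WT to 0.763, 0.759 and 0.777 in KD. This 2.36-fold change was larger than the 2.24-fold change of GKS over GMS. Irgm2 over Irgm1 was 1.59-fold higher in KD and Gbp3 over Gbp2 1.67-fold higher, with no overlap between the groups in either ratio. Iigp1 over Ifi47 did overlap, at 0.815 to 1.53 in WT and 1.31 to 1.41 in KD (two-sided exact permutation p = 0.4). Tgtp1 over Tgtp2 overlapped as well, at 1.07, 2.40 and 1.35 in WT and 2.21, 2.29 and 2.06 in KD (exact permutation p = 0.4). Adjusted over the 9 ratios computed, the lowest exact permutation p of 0.1 became 0.129, so no ratio passed a threshold of 0.05 and none could.

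**Figure D3:**
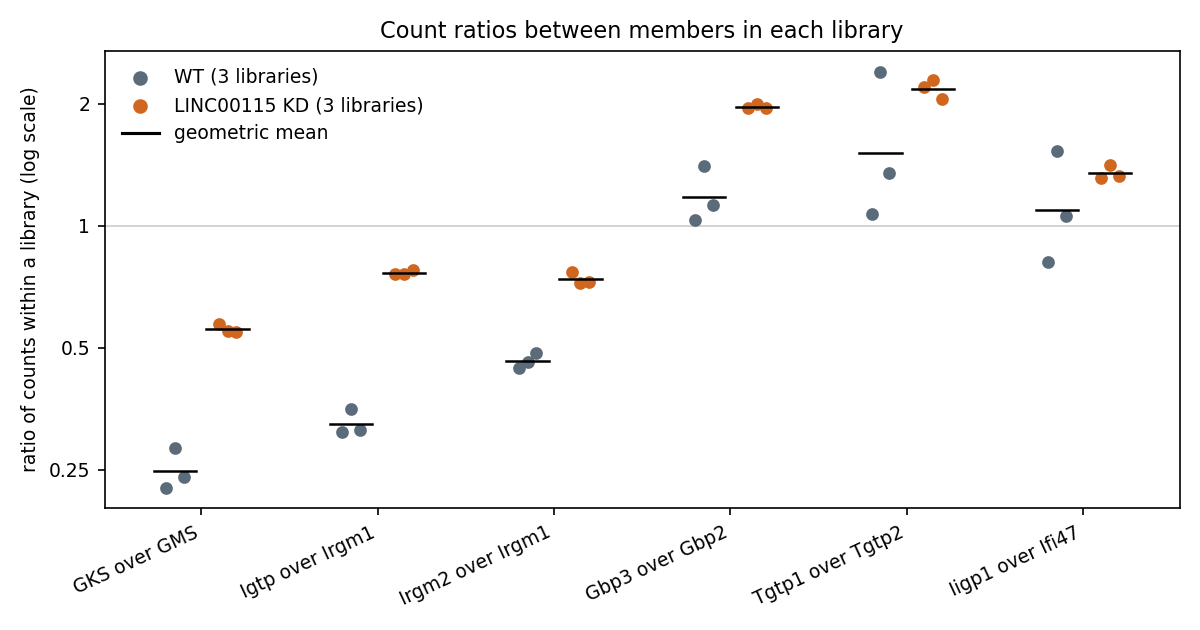
Ratio of counts between members or classes within each library (log scale), for 3 WT and 3 LINC00115 KD libraries, with bars at the geometric mean. The ratios of GKS over GMS, Igtp over Irgm1, Irgm2 over Irgm1 and Gbp3 over Gbp2 do not overlap between groups, while those of Tgtp1 over Tgtp2 and Iigp1 over Ifi47 do.

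The other genes of the families were read from a list of 18 symbols, chosen with earlier results of these data known. Of these, 16 were found and tested and 2 (Irgc1 and Gbp11) are not analysed here. Of the 16, 13 (81.25%) were called higher and 0 lower, beside 10.2% and 9.98% of all genes tested. Their median log2 fold change was 2.70. On the IRG side 7 of 8 were called higher. Gm5431 rose from 6, 2 and 5 counts in WT to 299, 261 and 210 in KD (log2 fold change 5.85, standard error 0.33, adjusted p = 1.63e-17, edgeR). Gm12185 rose from 25, 8 and 15 to 249, 242 and 255 counts (3.95), Gm4841 from 6, 3 and 11 to 75, 109 and 106 counts (3.84) and F830016B08Rik from 62, 33 and 45 to 665, 815 and 678 counts (3.94). Gm4951 rose from 4.65 ± 0.66 to 30.6 ± 1.66 normalized CPM (2.72) and 9930111J21Rik1 from 1.23 ± 0.306 to 14.7 ± 1.15 (3.57). 9930111J21Rik2 had 1, 2 and 2 counts in WT and 47, 49 and 79 in KD, a ratio of 34.5 in depth-scaled counts with a 95% exact interval of 14.5 to 108, which covers counting error only.

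Irgq, an IRG relative that lacks the family's usual GTPase activity and is not known as interferon-inducible, went the other way. It stood at 28.7, 29.3 and 29.5 normalized CPM in WT and at 17.2, 19.6 and 19.4 in KD, a log2 fold change of −0.64 with a standard error of 0.077 (edgeR, adjusted p = 3.66e-09). This passed the adjusted p but not the fold change of 2.

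On the GBP side 6 of 8 other genes were called higher. Gbp5, which promotes inflammasome assembly, rose from 5.28 ± 0.25 to 53.1 ± 2.66 normalized CPM (SD over 3 libraries in each group), 3.33 on the log2 scale. Gbp7 rose from 27.8 ± 0.827 to 171 ± 6.77 (2.63), Gbp2b, the mouse gene also called Gbp1, from 29.7 ± 1.70 to 154 ± 9.23 (2.37) and Gbp4 from 35.3 ± 0.363 to 138 ± 4.18 (1.97). Gbp10 and Gbp6 rose by 2.68 and 2.52 on the log2 scale, and they share sequence with each other, so their counts may be split. Gbp9 was past the adjusted p with a smaller change than these, from 89.1 ± 3.91 to 144 ± 7.11 normalized CPM, a 1.62-fold difference that stayed under the fold change of 2. Gbp8 had values of 2.36, 1.32 and 2.99 in WT and of 3.70, 3.30 and 1.97 in KD. The groups overlapped, and the adjusted p was 0.166 (edgeR), with a range of 0.042 to 0.613 over the alternatives tried.

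**Figure D4:**
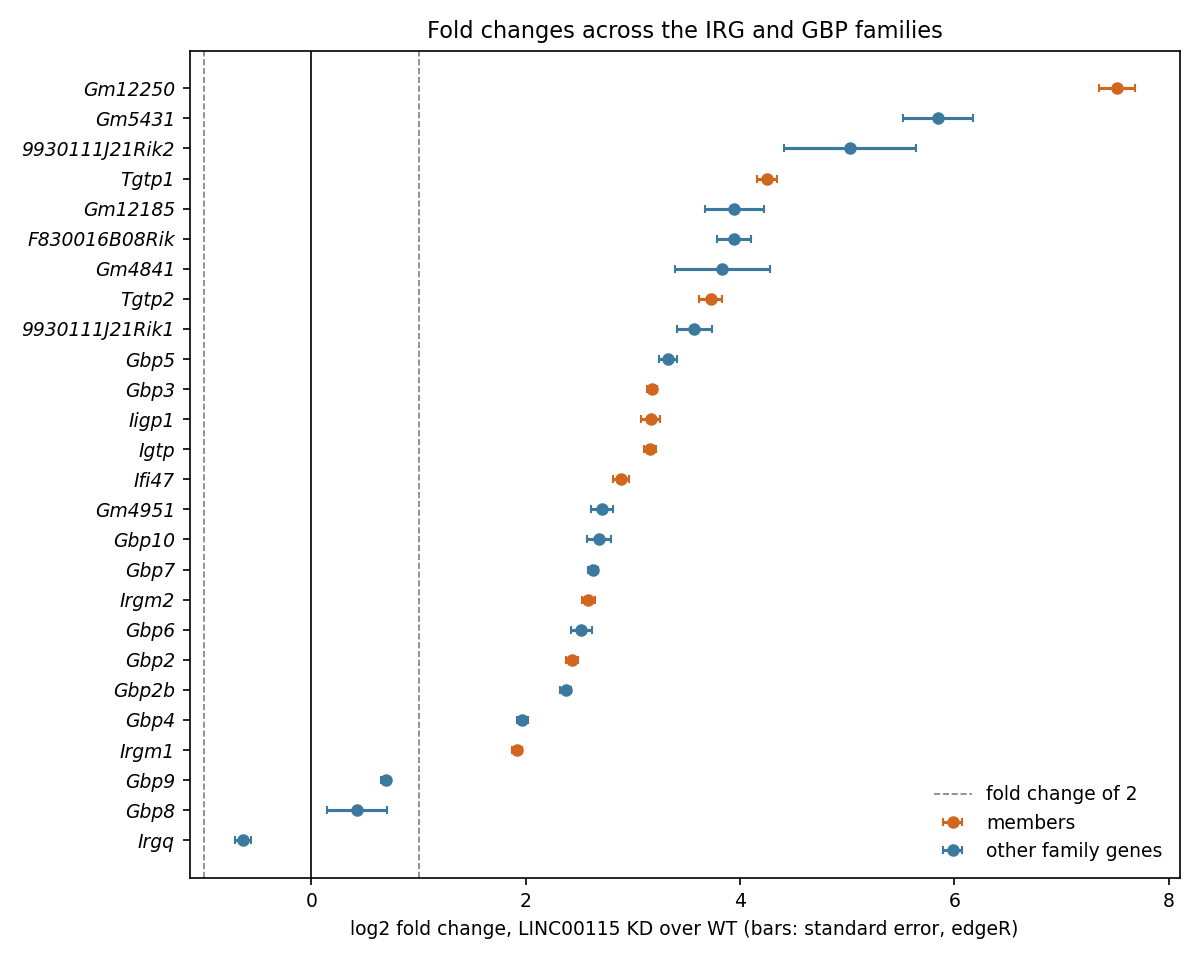
Log2 fold change of LINC00115 KD over WT with its standard error for the 10 members (orange) and 16 other IRG and GBP genes (blue), ordered by size, with dashed lines at a fold change of 2. Between the 2 lines lie Gbp9, Gbp8 and Irgq, and the point of 9930111J21Rik2 rests on 5 WT counts in all.

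Larger and more distant GTPases were read from 2 further lists. Gvin1 and Gvin2, very large interferon-inducible GTPases, were called higher, with Gvin1 going from 0.777 ± 0.241 to 4.27 ± 0.830 normalized CPM and Gvin2 from 5.87 ± 0.503 to 20.2 ± 2.45, while Gvin3 passed only the adjusted p (log2 fold change 0.72). Mx1 and Mx2 are not analysed here. Atlastins, the closest relatives of GBPs outside the interferon response, and dynamins and mitofusins are made without interferon. Of 10 such genes 9 were tested and 0 were called in either direction, beside 10.2% called higher and 9.98% lower over all genes tested. Their log2 fold changes ran from −0.27 (Dnm1) to 0.49 (Mfn2), with a median of −0.060. Past the adjusted p only, 2 were higher (Mfn1 and Mfn2) and 2 lower (Atl3 and Dnm1).

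Interferon ligands, receptors and their kinases act upstream of the GTPases. Of 16 listed genes 9 were tested, of which 1 (11.1%) was called higher and 1 lower, close to the shares over all genes tested (10.2% and 9.98%). The median log2 fold change was −0.30. Ifnb1, which encodes interferon beta, had 1, 5 and 1 counts in WT and 40, 66 and 87 in KD, a log2 fold change of 4.71 with a standard error of 0.60 (edgeR, adjusted p = 1.56e-08). It ranged from 4.37 to 5.84 when each library was left out, with the highest value without WT replicate 2, and the gene was not tested under a filter of at least 10 counts in every library. Ifng, which encodes the interferon known as the strongest inducer of IRG genes, had 4, 0 and 0 counts in WT and 2, 3 and 0 in KD, too few to be tested. Both interferon gamma receptor genes were lower at the adjusted p, Ifngr1 at 39.9 ± 1.66 against 32.5 ± 1.48 normalized CPM and Ifngr2 at 65.4 ± 5.26 against 37.6 ± 1.57, each under the fold change of 2. Of the receptor genes of type I interferon, Ifnar1 was lower (93.3 ± 2.64 against 64.2 ± 2.93) and Ifnar2 higher (38.1 ± 1.2 against 45.9 ± 2.13), also by less than 2-fold. Tyk2, a kinase of the type I receptor, was called lower, from 50.6 ± 4.22 to 20.6 ± 0.484 (log2 fold change −1.30).

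Transcription factors carry the signal to the GTPase genes, and feedback genes damp it. Of 17 listed genes 16 were tested, 7 (43.8%) were called higher and 1 lower, beside 10.2% and 9.98% of all genes tested. The median was 0.77 on the log2 scale. Irf7 rose from 71.5 ± 2.09 to 454 ± 12.1 normalized CPM (log2 fold change 2.67), Usp18, a deubiquitinase-like brake on the type I receptor, from 59.4 ± 2.91 to 296 ± 0.816 (2.32) and Stat2 from 52.5 ± 4.35 to 226 ± 5.05 (2.11). Irf1, a factor that drives GBP and IRG promoters, stood at 76.7, 67.9 and 74.1 in WT and at 133, 141 and 137 in KD. It passed the adjusted p (1.10e-18, edgeR) with a log2 fold change of 0.91, under the threshold. Irf8 was called lower (−1.06), but not without KD replicate 2, where the log2 fold change was −0.96. Irf9 was called higher at 1.04 and fell under the fold change of 2 with upper quartile scaling (0.997) and without WT replicate 1 (0.98).

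IRG and GBP proteins reach vacuoles with the help of the ATG8 conjugation machinery, a part of autophagy that marks membranes with small ubiquitin-like proteins. The list read here holds 20 genes of this machinery and of vacuole targeting. Of these 19 were tested, 3 (15.8%) were called higher, beside 10.2% of all genes tested, and 0 lower. The median log2 fold change was 0.25. Past the adjusted p, whatever the fold change, 13 were higher and 3 lower. The 3 lower were the ATG8 genes Map1lc3b (−0.66 on the log2 scale), Gabarap (−0.68) and Gabarapl1 (−0.67). Of the other ATG8 genes, Map1lc3a was higher (0.25) and Gabarapl2 did not pass (−0.0052). Those called were Rnf213, a very large ubiquitin ligase (456 ± 17 to 1453 ± 42.8 normalized CPM), Trim21, a ubiquitin ligase and antibody receptor (15.8 ± 0.655 to 35.3 ± 2.78), and Atg7, the enzyme that activates ATG8 proteins (14.7 ± 0.92 to 30.6 ± 1.64). Among the inflammasome genes that act after GBPs, 7 of 10 were tested, 2 (28.6%) were called higher and 0 lower. Over all genes tested these shares were 10.2% and 9.98%, and the list is short. Pycard had 1, 1 and 0 counts in WT and 1, 0 and 1 in KD, too few to be tested. Nlrp3 had a log2 fold change of −0.092 (edgeR, adjusted p = 0.828). Aim2, a sensor of cytosolic DNA, rose from 5.74 ± 0.569 to 34.1 ± 1.99 (log2 fold change 2.57) and Il18 from 3.86 ± 0.722 to 8.47 ± 0.893 (1.13). Casp4, known in the mouse as caspase-11, was at 21 ± 1.94 and 33.6 ± 0.353, a log2 fold change of 0.68 that stayed under the threshold.

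**Figure D5:**
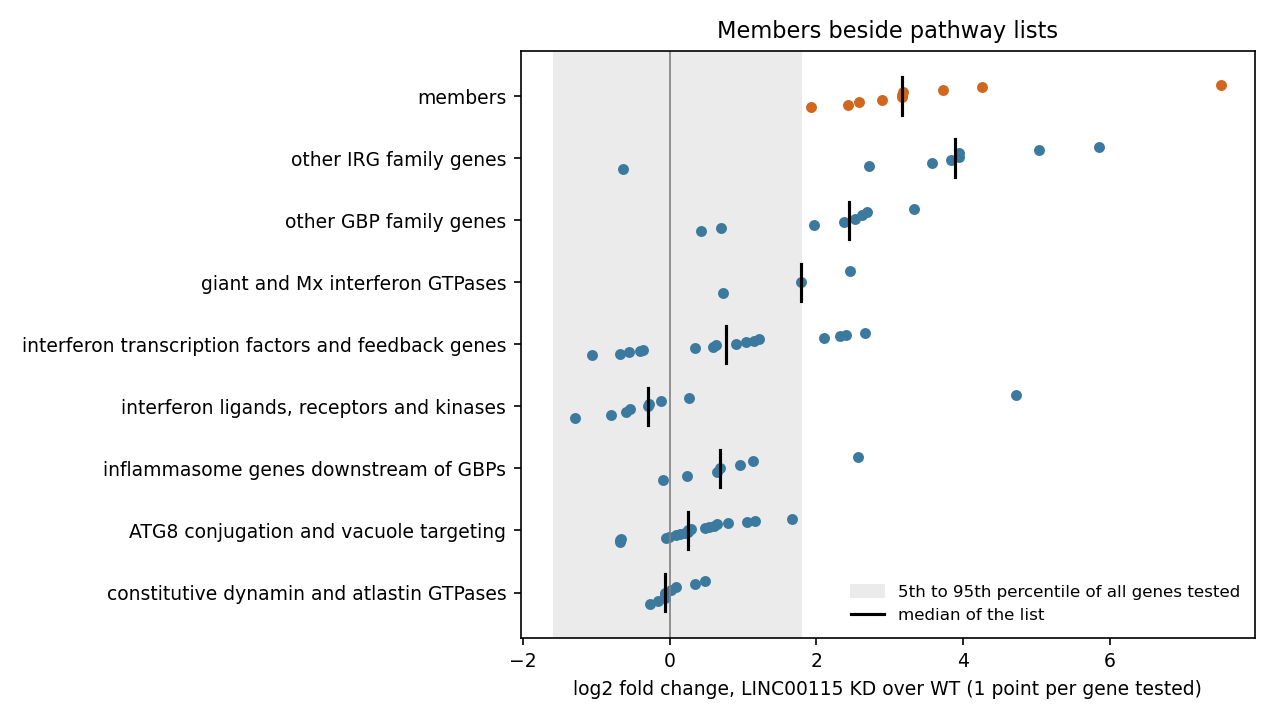
Log2 fold change of LINC00115 KD over WT, 1 point per gene tested, for the members and 8 lists of related genes, with a bar at each list's median and a grey band from the 5th to the 95th percentile of all genes tested (−1.57 to 1.79). All 10 members and most other family genes lie to the right of the band, while ligands and receptors centre at −0.30 and constitutive GTPases at −0.060.

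The genes whose pattern over the 6 libraries was most like the members' mean pattern were sought among 11639 other genes with a mean of at least 1 normalized CPM, by Euclidean distance of centred log2 values after adding 0.5. The nearest were Sftpa1 (distance 0.134), Sftpb (0.136), Phf11d (0.186), Il1rn (0.197) and Gbp5 (0.212). For comparison, the members closest to their own mean were Igtp (0.162) and Gbp3 (0.179), and the farthest was Gm12250 (2.99). Sftpa1 and Sftpb, with the 2 smallest distances, are lung surfactant genes of the lung epithelial marker list above, markers of another cell type. Both had 0 counts in every WT library and log2 fold changes of 10.3, against a median of 3.16 for the members. Their likeness therefore depends on the 0.5 that was added. Phf11d went from 31.1 ± 3.96 to 306 ± 10.3 normalized CPM and Il1rn, the interleukin 1 receptor antagonist, from 5.0 ± 0.601 to 50.9 ± 0.690.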

How the data were processed

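RNA-seq of 3 KD and 3 WT libraries was read from 1 deposited table with 22989 genes, whose raw counts the authors left without normalization. The paper's methods name HISAT2 and hg19, and the submitters' processing notes name HISAT2, featureCounts, DESeq2 and hg38. Annotation and strand setting are not given in the sources used here. Kits also differ between the labels (TRIzol, SMARTER) and the methods (RNeasy Plus, NEB). Columns were matched to samples by name, with 0 columns left unused.

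The test was that of edgeR 4.0.16 under R 4.3.3 (filterByExpr with a minimum count of 10 and a minimum total of 15, TMM scaling, quasi-likelihood test, group only, Benjamini-Hochberg over 13497 genes). Thresholds follow the paper's methods. Standard errors are the log2 fold change over the square root of F. Within a group, library pairs differed by 3.88 to 7.60 times sampling noise, so none was a copy. Ratios used an exact permutation test with 0.5 added to each sum. On counts simulated with a small, fixed spread, edgeR called 200 of 200 changed genes and 1 unchanged gene, with 13496 genes run in all. The changed genes were drawn from well-counted genes and given large changes. The simulation therefore does not speak for changed genes with few counts or for the wider spread of some members in WT. The members and lists were chosen with earlier results of these data known. Named genes were all members, all other family genes, 8 interferon ligand, receptor and factor genes, up to 4 called genes each way per list, and 5 genes of like pattern. Other genes were named after their values were seen. A gene that this rule names, and 1 ratio with it, are not reported here. Alternatives were DESeq2 1.42.0 on the same genes, other scalings, filters and thresholds, the replicate number as a block and each library left out. No sequence is given, since the references held human genes.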

Additional observations from a re-analysis of the deposited data

How the results depend on the processing

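All 10 members kept their direction and their call in the 131 values of single members under the alternatives, where the highest adjusted p was 3.76e-18 (edgeR and DESeq2). These values come from shared fits of the whole table and are not independent. The value of Tgtp1 and Tgtp2 counted as 1 gene was entered under both. The count of members called higher was 10 in each fit that left out a library and 9 under 2 settings, a filter of at least 10 counts in every library, which removes Gm12250, and a fold change over 4, which Irgm1 missed and at which 584 genes were called higher over the whole table. The other family genes called numbered 9 to 14. That filter also lowered the genes called over the whole table from 1381 to 903 higher and from 1347 to 919 lower. The replicate numbers did not pair the libraries (correlation of same-numbered deviations −0.020 to 0.014). With the replicate block 10 members were called, and 1360 higher and 1316 lower genes overall. The difference of the GKS to GMS ratio ranged from 1.09 to 1.26 on the log2 scale with each library left out and was 0.92 without Tgtp1 and Tgtp2. Depth limits Gm12250 and the family genes with under 10 counts in WT.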
